A study of Mus musculus with 16 samples.

Results

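LC3-GFP positive CD8+ T cells were compared after recovery from a melanoma and before transfer, by the regions of the genome where their chromatin was open. All libraries labelled LC3-GFP(pos) in the chromatin experiments were taken, which gave 4 libraries from tumours and 2 from cells kept in vitro, together 6 of the 16 samples of the study. Peaks of the 6 libraries were merged where they overlapped by 1 bp or more, and this gave 73052 regions. The donors were Pmel-LC3-GFP-RFP mice: their CD8+ cells bear a receptor against the melanocyte antigen Pmel and a reporter of the autophagy protein LC3. In both groups the cells had been stimulated for 3 days with 2 µg/ml of antibody to CD3 and 2 µg/ml of antibody to CD28 in 100 IU/ml IL2, and sorted for LC3-GFP after 24 h of carbon monoxide (CO). For the tumour group, C57BL/6 hosts with a B16-F10 melanoma (a pigmented mouse tumour line) of 12 days received the cells. After another 15 days the tumours were taken from individual mice, 4 in a group, and sorted for Vβ13+CD8+ cells. Vβ13 is the receptor chain of the transferred cells, but host CD8+ cells can carry it too, so the sort does not tell the donors' cells from the hosts' own. LC3-GFP was read before transfer, and the labels name no sort on it at recovery. The groups therefore differ in transfer, tumour, time and sort at once, which cannot be told apart here, and cells without CO were not analysed here. Nothing in the labels says whether the in vitro libraries came from separate mice or cultures, so p-values measure the spread between libraries, and that spread may be technical only.

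In ATAC-seq the Tn5 transposase cuts DNA that is not covered by nucleosomes, and a peak marks a stretch where cuts pile up. LC3 is attached to the membrane of autophagosomes, the vesicles that carry cell contents to lysosomes, and the kinase PERK can induce autophagy genes through the integrated stress response. CD8+ T cells that meet antigen for long in tumours are known for a lasting change of their enhancers, with open sites near inhibitory receptor genes such as Pdcd1, the receptor PD-1, and under factors such as TOX, NFAT and NR4A. Promoters rich in CG dinucleotides tend to be open in most cell types, while distal enhancers differ between cell states.

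A region was called gained when it had a peak in all 4 tumour libraries and in neither in vitro library, and lost when it had a peak in both in vitro libraries and in no tumour library. Common regions had a peak in all 6. The peak lists differ in length, with 27406, 37154, 36539 and 37477 peaks in tumour libraries 1 to 4 against 63761 and 53869 in vitro, and a shorter list makes an absent peak more likely. Counts of regions and of list members are therefore also given for equal lists, the 27406 peaks of each library with the smallest p-value, which is the whole list of tumour library 1. The depth behind the lists is unknown, and without counts no region could be tested on its own.

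Promoters show the classes at the level of sequence. Each is given from RefSeq (build GRCm38.p6, the same assembly as mm10) from 250 bases before to 50 after the gene start, 5′ to 3′ on the gene's strand, with each CG dinucleotide in capitals. Map1lc3b, which encodes LC3B, had a common region at its promoter, chr8:121590188-121590487 on the plus strand, with 34 CG. The promoters of Klrc1 (chr6:129678924-129679223, minus strand, 1 CG), which encodes the inhibitory lectin-like receptor NKG2A, and Itgam (chr7:128062390-128062689, plus strand, 6 CG), the integrin chain CD11b, overlapped gained regions. Those of Hdac9 (chr12:34528840-34529139, minus strand, 3 CG), a histone deacetylase, and Hecw2 (chr1:54194985-54195284, minus strand, 34 CG), a ubiquitin ligase, overlapped lost regions. The promoter of Ifng (chr10:118440796-118441095, plus strand, 7 CG), interferon gamma, had a peak in all 6 libraries but was gained in the equal lists.
Map1lc3b, common: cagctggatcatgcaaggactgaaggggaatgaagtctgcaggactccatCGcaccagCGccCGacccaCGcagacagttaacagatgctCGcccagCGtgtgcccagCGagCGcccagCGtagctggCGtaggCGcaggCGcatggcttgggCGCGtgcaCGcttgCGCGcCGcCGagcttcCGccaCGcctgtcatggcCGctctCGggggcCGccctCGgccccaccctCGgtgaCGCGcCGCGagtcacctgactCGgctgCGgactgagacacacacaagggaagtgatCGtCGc
Klrc1, gained: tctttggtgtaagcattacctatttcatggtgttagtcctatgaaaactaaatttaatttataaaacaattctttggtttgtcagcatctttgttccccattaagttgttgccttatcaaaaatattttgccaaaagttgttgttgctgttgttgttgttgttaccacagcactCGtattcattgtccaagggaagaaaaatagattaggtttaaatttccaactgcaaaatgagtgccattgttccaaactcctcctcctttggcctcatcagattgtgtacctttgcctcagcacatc
Itgam, gained: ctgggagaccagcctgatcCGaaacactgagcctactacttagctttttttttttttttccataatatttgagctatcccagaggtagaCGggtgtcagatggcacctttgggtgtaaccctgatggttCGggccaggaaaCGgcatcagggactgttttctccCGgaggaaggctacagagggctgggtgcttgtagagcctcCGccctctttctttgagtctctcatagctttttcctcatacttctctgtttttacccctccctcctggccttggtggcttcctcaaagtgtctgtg
Hdac9, lost: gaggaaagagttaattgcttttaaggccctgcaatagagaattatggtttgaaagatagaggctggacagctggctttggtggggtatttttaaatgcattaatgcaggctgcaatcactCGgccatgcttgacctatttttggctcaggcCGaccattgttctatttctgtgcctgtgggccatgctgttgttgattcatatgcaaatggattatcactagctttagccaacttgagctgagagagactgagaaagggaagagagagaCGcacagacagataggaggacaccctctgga
Hecw2, lost: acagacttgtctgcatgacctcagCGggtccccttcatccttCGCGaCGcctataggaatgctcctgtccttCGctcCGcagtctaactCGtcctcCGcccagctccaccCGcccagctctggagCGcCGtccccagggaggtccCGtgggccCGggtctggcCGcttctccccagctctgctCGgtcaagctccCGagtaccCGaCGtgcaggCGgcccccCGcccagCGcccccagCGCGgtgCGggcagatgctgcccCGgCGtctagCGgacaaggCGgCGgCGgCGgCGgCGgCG
Ifng, gained in the equal lists: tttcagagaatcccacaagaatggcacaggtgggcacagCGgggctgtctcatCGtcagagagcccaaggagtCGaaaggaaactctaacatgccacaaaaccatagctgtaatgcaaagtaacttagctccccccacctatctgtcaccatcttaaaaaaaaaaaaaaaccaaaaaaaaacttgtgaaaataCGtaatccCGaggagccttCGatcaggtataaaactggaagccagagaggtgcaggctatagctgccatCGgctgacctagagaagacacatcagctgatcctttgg

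Over all promoters, those with a common region held the most CG by median. Exceptions among the lost ones include Hecw2, with 34 CG, and Cacna1d, with 63. The median number of CG in the 300 bases was 4 over the 44 promoters with a gained region, 8 over the 857 with a lost region, 22 over the 12706 with a common region and 7 over all 32619 promoters. These include promoters of noncoding genes. Protein-coding genes made up 40.9% of gained, 67.2% of lost, 85.8% of common and 64.5% of all promoters. The classes therefore differ in kind of gene too, which was not adjusted for. With equal lists the medians were 8.5, 10 and 22 for gained, lost and common promoters. The letters of an AP-1 site (TGANTCA, read on both strands) stood in 6.82% of gained, 10.97% of lost and 4.64% of common promoters, against 7.84% of all. An ETS site (CCGGAAG, both strands) stood in 6.82% of gained, 4.67% of lost and 18.8% of common promoters, against 8.92% of all. The 44 gained promoters are too few to set against the lost ones for these letters.

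Gained regions were far fewer than lost ones over the complete lists, but only somewhat fewer in the equal lists. An absent peak may be a weak one, so a region without a peak need not be closed. Over the complete lists 1644 regions were gained, 2.25% of all, and 18105 were lost, 24.8%, while 22975 were common, 31.5%. In the equal lists, with 41180 regions, the numbers were close to each other: 4428 gained, 10.8%, and 5503 lost, 13.4%, with 16348 common, 39.7%. The excess of lost over gained regions thus moved with the length of the lists. A stricter rule took presence from the top 27406 peaks and absence from the complete lists, and it left 1090 gained, 1.49%, and 4372 lost regions, 5.98%, here called firm. Absence still comes from lists that are shorter in tumours, so the excess of firm lost regions is open to the same bias. Just outside the rule stood 1025 regions with a peak in all 4 tumour and 1 in vitro library, 1532 in 3 tumour libraries and no in vitro library, and 2624 in both in vitro and 1 tumour library. Without tumour library 1, which has the shortest list, 2991 regions were gained, and without in vitro library 2 there were 28426 lost regions.

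**Figure D1:**
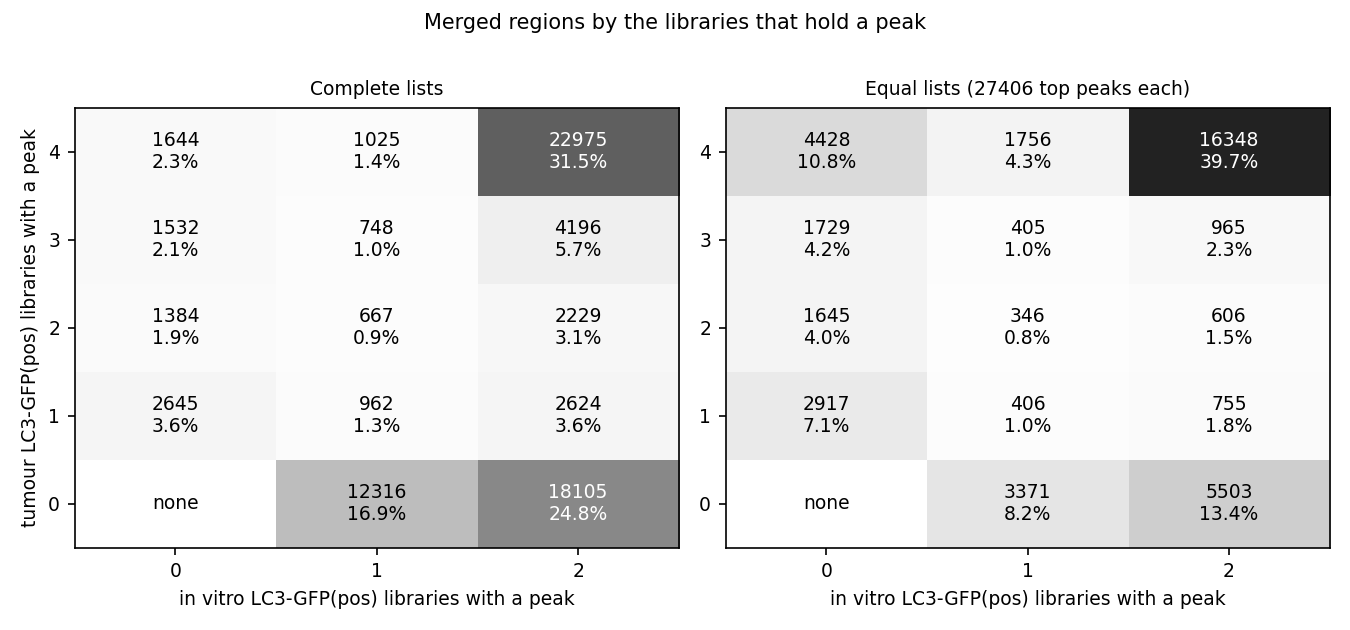
Merged regions by the number of tumour libraries (vertical axis, 0 to 4) and in vitro libraries (horizontal axis, 0 to 2) of LC3-GFP positive cells that hold a peak, for complete and equal lists, with the count and percent in each cell. The upper left cell is gained (1644 and 4428), the lower right lost (18105 and 5503) and the upper right common (22975 and 16348).

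Libraries of a group shared more of their open bases with each other than with the other group. The Jaccard index, the bases covered by both of a pair of libraries over the bases covered by either, was 0.598 to 0.759 for the 6 pairs of tumour libraries, 0.693 for the in vitro pair and 0.357 to 0.481 for the 8 pairs between groups. Every pair within a group lay above every pair between groups. The mean within groups exceeded that between groups by 0.239, the highest value of the 15 ways to assign 6 libraries to groups of 4 and 2 (exact one-sided permutation test, p = 0.0667, the smallest this design allows). With equal lists the values were 0.656 to 0.783, 0.719 and 0.438 to 0.510, a difference of 0.235 with the same exact p of 0.0667. Tumour library 1 was the least like the other tumour libraries in both comparisons, at 0.598 to 0.632 with the complete lists.

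**Figure D2:**
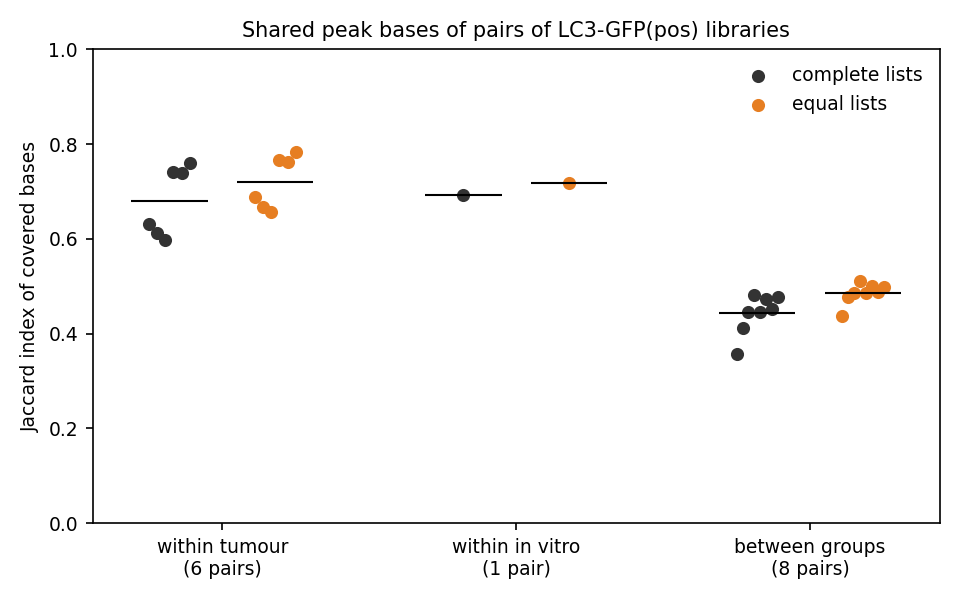
Jaccard index of covered bases (vertical axis, 0 to 1) for each pair of LC3-GFP positive libraries, by kind of pair, for complete lists (dark) and equal lists (orange), with lines at the means. Pairs between groups reach at most 0.481 (complete) and 0.510 (equal), and pairs within a group start at 0.598 and 0.656.

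Few gained and lost regions lay at gene starts. Of gained regions 2.01% lay within 1 kb of an annotated gene start, against 5.12% of lost, 47.0% of common and 18.4% of all regions. Bodies of protein-coding genes with 2 kb upstream held another 53.4% of gained, 57.0% of lost, 28.7% of common and 47.4% of all regions. Shares at gene starts were, with equal lists, 6.39%, 7.25% and 60.4%, against 29.2% of all. The median width was 1075 bp for gained, 1589 bp for common and 850 bp for lost regions. A merged region tends to widen with each library that adds a peak. The classes fix that number at 4, 6 and 2 libraries, so these widths cannot be compared between classes. The median gained region stood at 76.2%, 57.7%, 58.5% and 57.6% of the way down the list of tumour libraries 1 to 4, and the median common region at 31.2% to 42.6%. Leaving out chromosome Y, with 22 regions and none gained, gained regions made up from 1.83% of the regions of chromosome 13 to 2.75% of those of chromosome X, and lost regions made up from 18.4% on X to 28.6% on chromosome 13.

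Values per library differed between the groups without overlap over the complete lists. In the equal lists, which fix the number of peaks and keep the strongest, the groups overlapped. The part of list length in the difference was not tested. The share of peaks at gene starts was 39.8%, 31.5%, 31.9% and 31.2% in tumour libraries 1 to 4 and 20.7% and 23.8% in vitro. With equal lists it was 39.7% to 39.9% in tumours and 39.9% and 40.1% in vitro, and the groups overlapped. An exact two-sided permutation test of 4 against 2 libraries cannot go below p = 0.133, and all 5 values of the complete lists reached that p (number of peaks, covered bases, median length, and shares at and away from genes, adjusted p = 0.24 over 9 values). For equal lists the exact p-values ran from 0.267 to 0.8.

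The strongest gained region of all lay 187 kb from the nearest protein-coding gene, Ifng, at chr10:118633042-118634347. It is outside the rule for named genes and was singled out after its values were seen. Its fold enrichment over local background was 10.4, 10.2, 8.56 and 7.89 in tumour libraries 1 to 4, at ranks 3312, 1413, 4690 and 6510 of their lists, and neither in vitro LC3-GFP positive library had a peak there. Both in vitro LC3-GFP negative libraries did have one, so the region was not closed in every library before transfer.

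At Ifng itself a second, smaller gained region lay 5.16 kb upstream of the gene, at chr10:118435204-118435885, with fold enrichments of 5.53, 8.06, 4.81 and 6.195 in tumours. No in vitro library had a peak there, LC3-GFP negative ones included, and all 4 LC3-GFP negative tumour libraries had one. The region over the Ifng promoter, chr10:118440299-118443629, had a peak in all 6 libraries. It ranked 15150, 13659, 11332 and 13683 in tumours and 38854 and 29245 in vitro, so it was in the top 27406 of every tumour library and of no in vitro library, where the second stood close to that limit. Ifng RNA before transfer was at 1.94 and 2.05 CPM (counts scaled to libraries of equal size).

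Pdcd1 differed in both directions. A gained region at chr1:94091344-94092466, 38.8 kb from the gene, had fold enrichments of 8.57, 9.73, 9.38 and 8.43 in tumours and no peak in any in vitro library of either population. Inside the gene a firm lost region at chr1:94042061-94042917 had 4.41 and 4.71 in vitro, and a weaker lost region lay at chr1:94051033-94051563 with 2.16 and 2.42. LC3-GFP negative cells had a peak at the firm lost region in both in vitro libraries and in tumour libraries 1 and 4. The region over the Pdcd1 start, chr1:94051955-94054107, had a peak in 3 of 4 tumour libraries and in both in vitro libraries. Another region 26.0 kb from the gene, chr1:94078522-94079736, was common. These loci were also chosen after their values were seen.

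**Figure D3:**
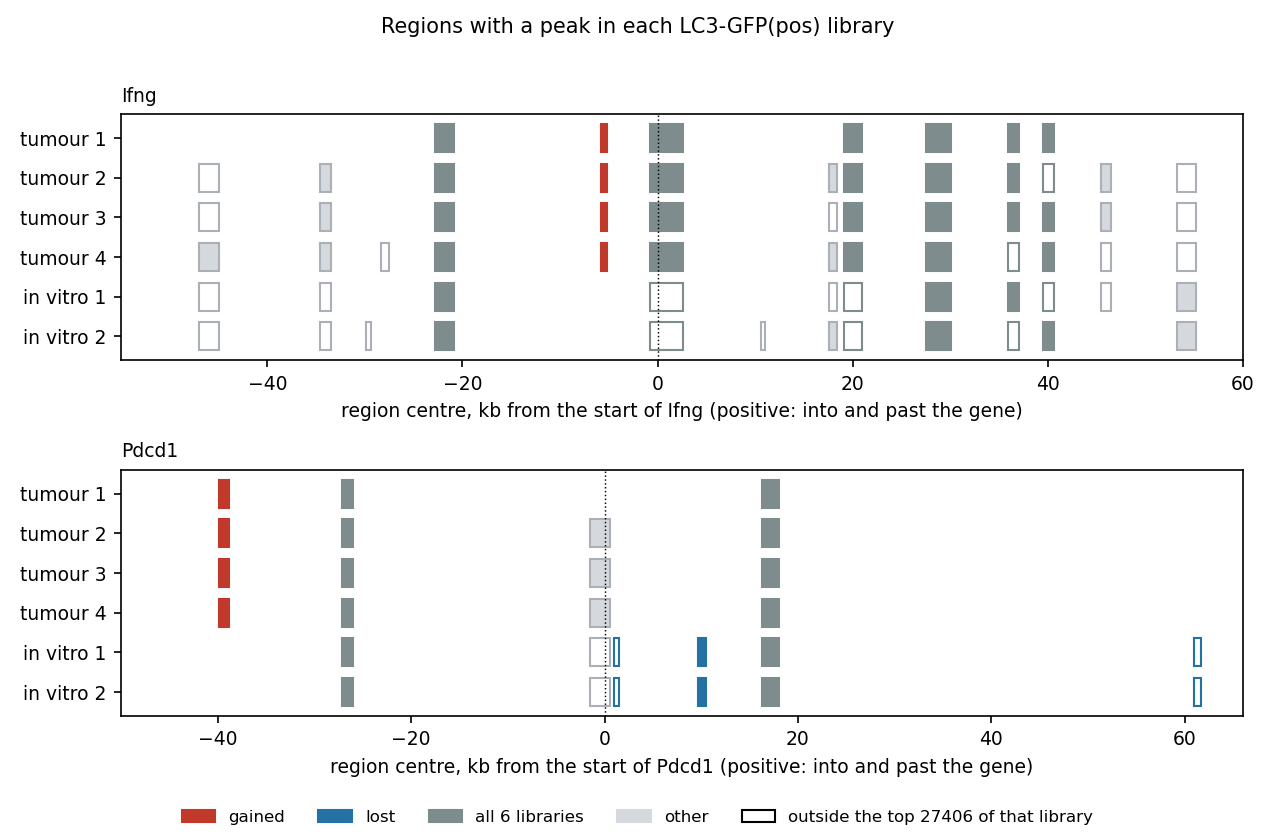
Merged regions with a peak (boxes) in each LC3-GFP positive library (rows) around Ifng and Pdcd1, by distance in kb from the gene start (dotted line), with box width the width of the merged region. Red is gained, blue lost, dark grey common, light grey other, and an open box is a peak outside the top 27406 of its library. Red boxes stand 5.50 kb before the Ifng start and 39.4 kb before the Pdcd1 start in the 4 tumour libraries only, and the box over the Ifng start is filled in tumours and open in vitro.

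The 10 gained regions with the best ranks inside genes lay in Msra, Stat5b, Zfp870, Syne1, Mpzl3, Zfp286, Nxn, Niban2, Nsmce2 and Fam114a1. Some of these genes held lost regions too, 13 in Nsmce2 (5 firm), 10 in Msra (4 firm), and 1 or 2 each in Nxn, Syne1 and Niban2. Zfp870, Mpzl3, Zfp286 and Fam114a1 held no lost region. Stat5b encodes a transcription factor that acts downstream of IL2. Its gained region, chr11:100804141-100805621 in the gene body, had fold enrichments of 8.55, 8.43, 7.53 and 8.10 in tumour libraries 1 to 4 and no peak in vitro. LC3-GFP negative cells showed the same, with a peak in all 4 tumour libraries and in neither in vitro library. Stat5b also held 5 lost regions, none of them firm, and its RNA before transfer was at 191 and 193 CPM. In Nxn, nucleoredoxin, the region chr11:76296426-76297121 had 8.88, 10.7, 8.96 and 9.10. In Syne1, a protein that ties the nucleus to the cytoskeleton, chr10:5383932-5384950 had 9.32, 10.2, 9.26 and 10.3. Thada, named for its rearrangement in thyroid adenomas, held the most gained regions, 4 of its 35, all firm, beside 9 lost.

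Genes of T cell receptor signalling held many of the gained regions seen at listed genes. Over all 15507 genes with a region, 5.15% had a gained and 36.9% a lost region in the body or 2 kb upstream, and in the equal lists 14.1% and 16.8% of 14229 genes. Firm gained and lost regions were seen in 3.53% and 12.5% of the 15507. Counts of members in every list below are to be set beside these shares. Of 18 T cell receptor signalling genes, 9 had a gained and 8 a lost region, and in the equal lists 13 and 4. These genes carry many regions, a median of 8 against 2 over all genes, so shares of regions are the fairer measure. In the equal lists 21 of their 115 regions were gained and 5 lost, 18.3% and 4.35%, against 10.8% and 13.4% of all regions. Over the complete lists 7.53% of 186 regions were gained and 12.9% lost, against 2.25% and 24.8%. Under the firm rule the gained share was closer to that of all regions, 2.15% against 1.49%, and the lost share was 1.08% against 5.98%. Cd247, the receptor's zeta chain, had 2 gained and no lost region. The firm gained region at chr1:165837132-165838309 had fold enrichments of 3.44, 3.07, 3.12 and 3.41 in tumours. Themis, needed for signalling in developing T cells, held 3 gained regions and no lost region, none of them firm. Cblb, a ubiquitin ligase that restrains the receptor, held 2 gained regions, of which chr16:52129016-52130328 was firm (5.46, 4.61, 5.13 and 4.43). Plcg1, a phospholipase, and Cd5, an inhibitory coreceptor, held 1 firm gained region each. Lost regions lay in Fyn, Lcp2, Vav1, Prkcq and Cblb, among others. Firm ones were seen in Fyn and Cd6.

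Activation and cytokine receptor genes showed a like pattern, with a gained region in 6 and a lost region in 9 of 21, and in the equal lists in 13 and 5 of 20. These genes hold a median of 4 regions. Of their 111 regions 6.31% were gained and 15.3% lost, against 2.25% and 24.8% of all regions. In the equal lists 24.6% of 69 regions were gained and 8.70% lost, against 10.8% and 13.4%. Firm shares were 2.70% gained and 4.50% lost, against 1.49% and 5.98%. Tnfrsf9, the costimulator 4-1BB, had a firm gained region at chr4:150939735-150940646 with 6.86, 6.03, 6.74 and 6.80, at a gene with 579 and 593 CPM of RNA before transfer. Il12rb2, a chain of the interleukin 12 receptor, had one at chr6:67338928-67340163 with 5.02, 5.19, 4.28 and 4.09. Both regions had a peak in all 4 LC3-GFP negative tumour libraries and in neither in vitro one. Cd40lg, the CD40 ligand, had one at chrX:57221650-57222547. The IL2 receptor genes Il2ra and Il2rb had no gained region over the complete lists, but 2 and 1 in the equal lists. At Il2ra, chr2:11652946-11653997 ranked 12683, 15101, 21958 and 20351 in tumours and 45626 and 30572 in vitro.

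Effector genes seldom held a lost region. Of 18 effector molecule genes with a region, 3 had a gained region (Gzmb, Gzmm and Ccl4) and 1 a lost region (Gzmm). With equal lists 6 had a gained region (Ifng, Tnf, Fasl, Gzmm, Ccl4 and Serpinb9) and none a lost one, with 6 of 22 regions gained. The list is small and its genes hold a median of 1 region. Gzmb, granzyme B, was among the most abundant of the named RNAs before transfer at 5792 and 5957 CPM. Its gained region, chr14:56259957-56261010 in the gene body, had modest fold enrichments of 3.16, 2.69, 3.01 and 2.66 and was not firm, and the region over its start was common. Ccl4, a chemokine gene at 0.854 and 1.03 CPM, had a firm gained region at chr11:83657080-83657869 with 4.97, 4.05, 4.29 and 4.68. At Fasl, the death ligand, chr1:161787024-161788832 over the start ranked 9589, 9757, 13521 and 11448 in tumours and 40009 and 30852 in vitro. At Tnf, tumour necrosis factor, chr17:35200309-35202219 ranked 13495, 19346, 21836 and 20200 in tumours and 49670 and 33927 in vitro.

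Among 12 genes of effector fate and NK-like receptors, 3 had a gained and 4 a lost region, and in the equal lists 8 and 3. Klrg1, a marker of short-lived effector cells, had a single region, and it was gained. It overlaps the lower-numbered end of the gene, whose strand the annotation table used does not give, at chr6:122268808-122270776, with 3.86, 5.55, 6.92 and 5.79 in tumours, a peak in all 4 LC3-GFP negative tumour libraries and none in vitro. Zeb2, a repressor of late effector cells, had a firm gained region at chr2:45016897-45018289 (6.41, 8.17, 5.88 and 8.02) but 7 lost regions, of which 3 were firm. Tbx21, the factor T-bet, was gained in the equal lists at chr11:97103249-97104703, with ranks of 14450, 13196, 13179 and 14002 in tumours and 50928 and 45499 in vitro. Cx3cr1, a chemokine receptor of effector cells, was gained there at its start.

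Exhaustion transcription factor genes had gained regions in 3 of 17 (Nfatc2, Irf8 and Ikzf3) and lost regions in 10, and in the equal lists in 9 and 3 of 16. Of their 77 regions in the equal lists 19 were gained and 5 lost, 24.7% and 6.49%, against 10.8% and 13.4% of all regions. Over the complete lists 4.10% of 122 regions were gained and 13.1% lost, against 2.25% and 24.8%. Ikzf3, the lymphoid factor Aiolos, led with 3 gained regions, all firm, and 7 of 12 regions gained in the equal lists. Its region chr11:98487278-98488219 had 5.63, 6.83, 6.75 and 6.75 in tumours. In Irf8, chr8:120751809-120752891 had 6.14, 5.90, 7.43 and 5.603 and no peak in an in vitro library. Tox had no gained region over the complete lists and 2 of 19 regions lost, neither firm. With equal lists 2 Tox regions were gained, of which chr4:6969766-6971099 ranked 13201, 13287, 14361 and 14321 in tumours and 34071 and 36790 in vitro. Regions of Nr4a1, Nr4a3, Nfatc1, Irf4 and Prdm1 were likewise gained in the equal lists but not over the complete lists.

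Inhibitory receptor genes had no gained region in the gene or 2 kb upstream over the complete lists in any of 15 members, and 7 had a lost region (Pdcd1, Havcr2, Tigit, Entpd1, Cd38, Btla and Vsir). By equal lists 5 of 14 had a gained region (Lag3, Ctla4, Cd38, Cd101 and Nt5e) and 3 a lost one (Pdcd1, Cd38 and Btla). Over all genes 5.15% had a gained and 36.9% a lost region over the complete lists, so with 15 members few gained ones could be seen. Of their 73 regions 20.5% were lost, against 24.8% of all regions. In the equal lists 11.1% of 45 regions were gained and 6.67% lost, against 10.8% and 13.4%. Ctla4 was gained at chr1:60910504-60912056, at ranks 12049, 18955, 17946 and 19216 in tumours and 50592 and 44061 in vitro. Cd101 was gained over its start, chr3:101029086-101030477, at ranks 12714, 7769, 11528 and 12590 against 43042 and 38242. By nearest gene within 50 kb, 2 of 15 had a gained and 11 a lost region, against 7.17% and 46.2% of all genes.

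Memory and stemness genes had gained regions in 4 of 25 (Klf3, Satb1, Foxp1 and Ets1) and lost regions in 14, and in the equal lists in 12 and 8 of 24. Those are 16% and 56% over the complete lists, against 5.15% and 36.9% of all genes, but these genes carry many regions. Of their 310 regions 2.26% were gained and 25.5% lost, close to the 2.25% and 24.8% of all regions. In the equal lists 20.5% and 9.66% of 176 regions were gained and lost, against 10.8% and 13.4%. Tcf7, the factor TCF1, had a firm lost region at chr11:52260770-52262383, with 3.52 and 3.78 in vitro. That region lies 21.8 kb into the gene. With equal lists it also had a gained region 15.0 kb into the gene, at chr11:52267738-52268963. Lef1 had 3 lost regions, and 5 gained and 1 lost in the equal lists. Foxp1, a repressor linked to quiescence, spans 90 regions, of which 2 were gained and 25 lost, and in the equal lists 11 and 3 of 46. Bach2 had 15 lost of 48 regions, 4 of them firm, and in the equal lists 4 gained and 4 lost of 25. Tissue residency genes had no gained region in 14 members and a lost region in 6, and in the equal lists 3 (Itgae, Cxcr6 and Ccr2) and 2 (Itga1 and P2rx7). With so few members a share of 5.15% would give few gained ones. Of their 50 regions 18% were lost, and in the equal lists 8.57% of 35 were gained and 8.57% lost.

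**Figure D4:**
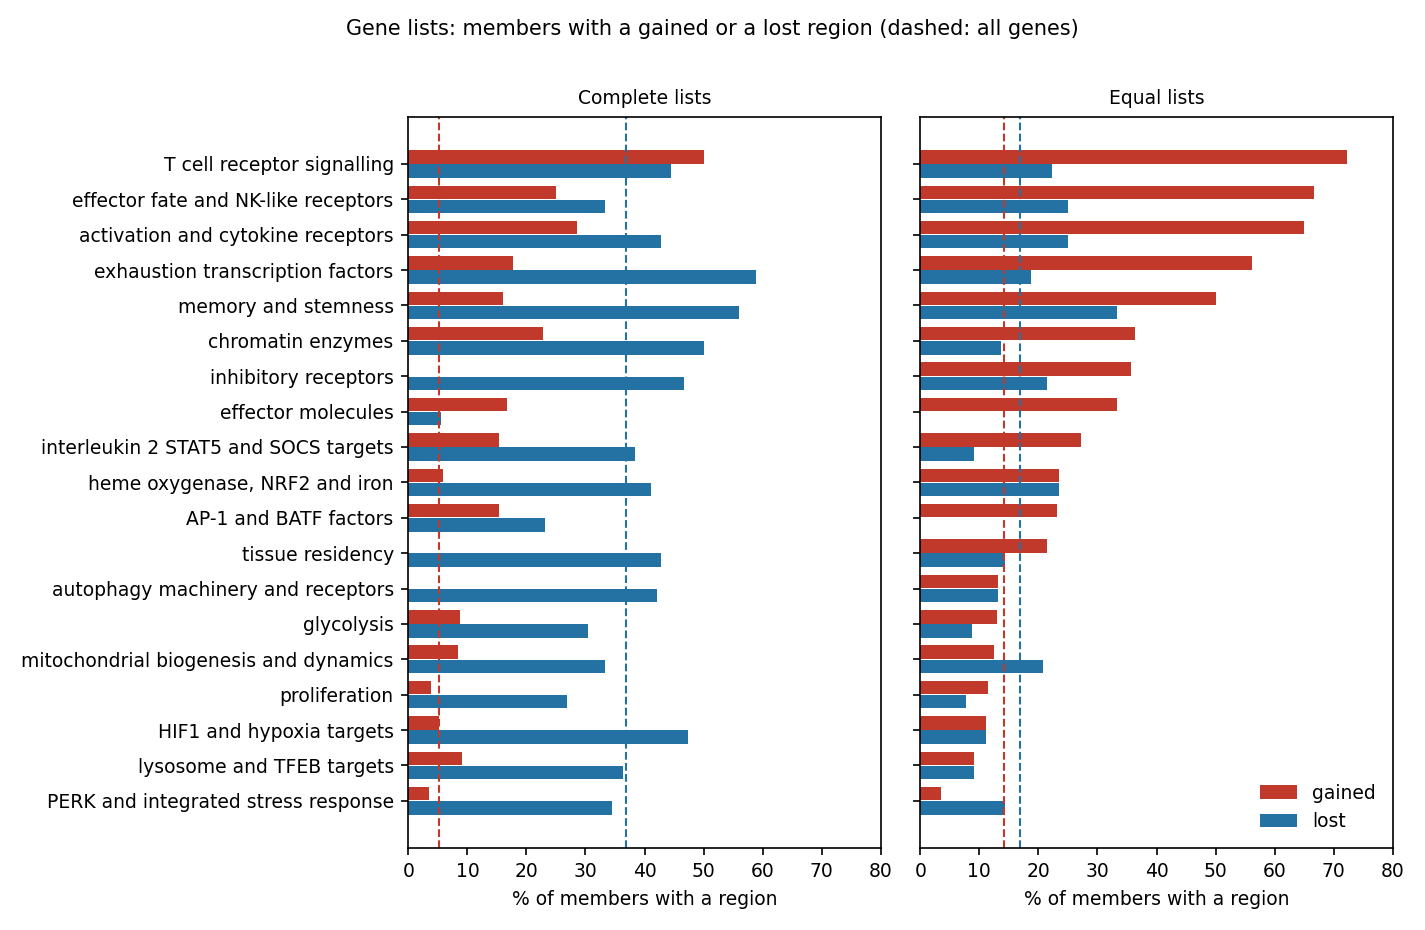
Percent of the members with a region that hold a gained (red) or a lost (blue) region in the gene body or 2 kb upstream, by gene list, for complete lists (left) and equal lists (right). Dashed lines give the same over all genes, 5.15% and 36.9% on the left and 14.1% and 16.8% on the right. The T cell receptor list reaches 50% and 72.2% gained, and the PERK and autophagy lists stay at or under the gained lines.

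Autophagy and stress response genes, after which the sort and the study are named, had gained regions in no larger share than all genes. All 38 autophagy genes had a common region, a share not worked out over all genes. None had a gained region, against 5.15% of all genes, while 16 had a lost region, 42.1% against 36.9% of all genes. Of their 135 regions 24.4% were lost, against 24.8% of all regions. By equal lists 5 had a gained (Pik3c3, Atg7, Atg10, Nbr1 and Pink1) and 5 a lost region (Rb1cc1, Wipi2, Atg7, Atg10 and Optn), each 13.2%, against 14.1% and 16.8%. Map1lc3b itself held 1 common region and no gained or lost one, with RNA at 59.1 and 55.6 CPM. Atg7, an enzyme of LC3 conjugation, had 2 firm lost regions, such as chr6:114842333-114843339 (5.62 and 6.31 in vitro), and, in the equal lists, a gained one at chr6:114659745-114660840, at ranks 6903, 11740, 10951 and 9037 in tumours and 38253 and 35393 in vitro.

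Of 29 PERK and integrated stress response genes 1 had a gained region, Ern1, and 10 a lost one, and in the equal lists 1 and 4 of 28. The gained share was 3.45% against 5.15% of all genes, and in the equal lists 3.57% against 14.1%, at genes with a median of 1 region. The lost shares were 34.5% against 36.9%, and 14.3% against 16.8%. Ern1 encodes the stress sensor IRE1. Its firm gained region, chr11:106430176-106431182, had 7.43, 7.90, 7.28 and 8.46 in tumours, no peak in an in vitro library and a peak in 3 of 4 LC3-GFP negative tumour libraries. Eif2ak3, which encodes PERK, had 3 common regions and 1 lost. Vldlr, a lipoprotein receptor gene induced by the stress response, had a single region, which was lost and firm. It lay over the start, chr19:27216789-27219160, with 4.18 and 5.38 in vitro. Vldlr RNA before transfer was at 25.5 and 26.2 CPM. Firm lost regions also lay in Eif2ak4, Sesn2 and Atf6.

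The lists of metabolism, lysosomes and proliferation are set beside 5.15% of all genes with a gained and 36.9% with a lost region. A gained region was seen in 2 of 22 lysosome genes (Ctsb and Uvrag), 1 of 17 heme oxygenase, NRF2 and iron genes (Keap1), 1 of 19 hypoxia genes (P4ha2), 2 of 23 glycolysis genes (Pfkfb3 and Slc16a1), 2 of 24 mitochondrial genes (Gabpa and Ppard), and 1 of 26 proliferation genes (Ccnd3). Lost regions were seen in 8, 7, 9, 7, 8 and 7 of these lists' members in the same order, or 26.9% to 47.4%. With equal lists a gained region was seen in 2 of 22, 4 of 17, 2 of 18, 3 of 23, 3 of 24 and 3 of 26 members, against 14.1% of all genes. Lost regions were seen there in 2, 4, 2, 2, 5 and 2, against 16.8%. In Uvrag, which acts in vesicle fusion, the gained region chr7:99002998-99004123 had 9.29, 8.70, 8.70 and 8.60. Chromatin enzyme genes had a gained region in 5 of 22 (Tet1 and Tet3 among them) and a lost one in 11, and in the equal lists in 8 and 3. The gained shares of members were 22.7% and 36.4%, but these genes hold a median of 5.5 regions. By regions the gained shares were nearer to those of all, at 3.40% of 147 against 2.25%, and in the equal lists 13.3% of 83 against 10.8%. The lost shares were 12.9% against 24.8%, and 6.02% against 13.4%. In Hdac7, a deacetylase of T cells, 4 of 5 regions were gained in the equal lists and none over the complete lists. Of the IL2, STAT5 and SOCS genes 2 of 13 had a gained region (Stat5b and Bcl2l1) and 5 a lost one, and in the equal lists 3 and 1 of 11. Of AP-1 and BATF genes 2 of 13 had a gained (Fosl2 and Bach1) and 3 a lost one, and in the equal lists 3 and none. In both lists 15.4% of members had a gained region over the complete lists. In Fosl2, an AP-1 subunit, chr5:32148053-32149682 had 7.80, 6.14, 6.38 and 6.81.

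The lost regions included genes that T cells do not use. The most lost regions in a gene, 27 of 44 and 11 of them firm, lay in Ebf1, which sets B cell identity and had 0.456 and 0.705 CPM of RNA in the sorted cells. In the equal lists 12 of its 18 regions were lost. Among B cell markers 5 of 8 had a lost region, and in the equal lists 3 had a lost and 2 a gained one. Over the complete lists 17 of 30 regions were lost, 56.7% against 24.8% of all, with 7 in Pax5 and 7 in Blk. Peaks at the 8 B cell marker genes numbered 28 and 28 in the in vitro libraries and 5, 11, 9 and 7 in the tumour libraries, and in the equal lists 11 and 13 against 5, 4, 6 and 4. All 8 genes had a peak in both in vitro libraries, Cd79a and Ms4a1 included. The in vitro LC3-GFP negative libraries had 21 and 21. Myeloid markers had a gained region in 2 (Itgam and Fcgr3) and a lost region in 8 of 11, and in the equal lists in 3 and 4 of 8. NK markers had a lost region in 2 of 4, and in the equal lists in 1 of 4. CD8 T cell markers had a peak at 9 or 10 of 10 genes in every library of the complete lists. By genes with a peak they went the other way only in the equal lists, with 9, 9, 7 and 7 in tumours but 4 and 4 in vitro. Of 7 members with a region 2 had a gained and 0 a lost region, and in the equal lists 3 and 1. Of the CD4 and regulatory T cell markers Zbtb7b had a gained region, and 3 had a lost one, Foxp3 among them, and in the equal lists none of 5 had a gained and 1 a lost region. No peak was seen at Tyr, Tyrp1, Dct, Sox10 or Slc45a2 in any of the 6 libraries, so these defining genes of melanocytes were at 0, while Mlana, Pmel, Mitf and Gpnmb had a peak in every library. Other markers at 0 in all 6 were Lyz2, S100a8 and S100a9 of myeloid cells, Ncr1 and Klra8 of NK cells, and Col1a2, Col3a1 and Tek of stroma and endothelium. The stroma list had no gained region and a lost region in 4 of 7 members (Pdgfrb, Pecam1, Cdh5 and Kdr), against 36.9% of all genes with a lost region, but in the equal lists 1 of 6 members had a gained and 1 of 6 a lost region. In bulk libraries, fewer cells of a type and less open chromatin per cell cannot be told apart, and the part of other cells in the lost regions was not tested.

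The very strongest lost regions were narrow. In Cmss1 and Filip1l, which overlap, chr16:57391320-57391677 is 357 bp wide, ranked 4 and 3 in vitro with fold enrichments of 13.0 and 17.5, and had no peak in a tumour LC3-GFP positive library. In Zc3h7a, chr16:11143938-11144316 is 378 bp wide and ranked 5 and 2, with 10.6 and 14.4. Both had a peak in both in vitro LC3-GFP negative libraries and in tumour library 1 of those cells. Regions next in rank were of usual width. In Cdon, a cell surface receptor of Hedgehog signalling, chr9:35483319-35484624 ranked 74 and 406, and in Pde7b, a cyclic AMP phosphodiesterase, chr10:20517193-20518942 ranked 152 and 690. The others of the first 10 lay in Ren1, Prdm15, Slc1a2, Syn3, Samd12 and Rbm27. Of the genes with the most lost regions, Lpp had 26, Hdac9 25, Foxp1 25, Rad51b 18 and Cacna1d 18, beside Zbtb20, Nedd4l, Arid1b and Cux1 with 17 each. These are long genes. With equal lists their lost regions numbered 12 in Lpp, 6 in Hdac9, 3 in Foxp1, 5 in Rad51b and 7 in Cacna1d.

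The regions were then looked up in the LC3-GFP negative libraries, which played no part in choosing them. The full pattern of its class, in all 6 of those libraries, was seen at 10.1% of gained and 25.2% of lost regions. Their tumour library 2 stands apart from all others, with a peak at 13 of 14 myeloid markers against 6 or 7 in the other 3, and 25 peaks at melanoma markers against 8 to 10, Dct included. In tumour libraries 1, 3 and 4 a peak was present at 71.8%, 71.7% and 66% of gained regions, and in library 2 at 23.7%. Before transfer the share was 35.2% and 23.9%. The mean was 58.3% ± 23.2 (SD, n = 4) in tumours, or 69.9% without library 2, against 29.6% ± 7.997 (SD, n = 2) in vitro. Because of library 2 the groups overlapped. Lost regions had the reverse order without overlap, with 15.6%, 38.0%, 10.6% and 8.06% in tumour libraries 1 to 4 and 67.1% and 58.6% in vitro. Common regions had a peak at 91.3% to 99.1%. Of the 1644 gained regions, 320 had a peak in all 4 LC3-GFP negative tumour libraries and 166 also lacked one in both in vitro libraries. Of the 1644, 272 had no peak in any LC3-GFP negative tumour library, among them regions of Tet1 and Ehmt1. Whether those differ between the populations was not tested.

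**Figure D5:**
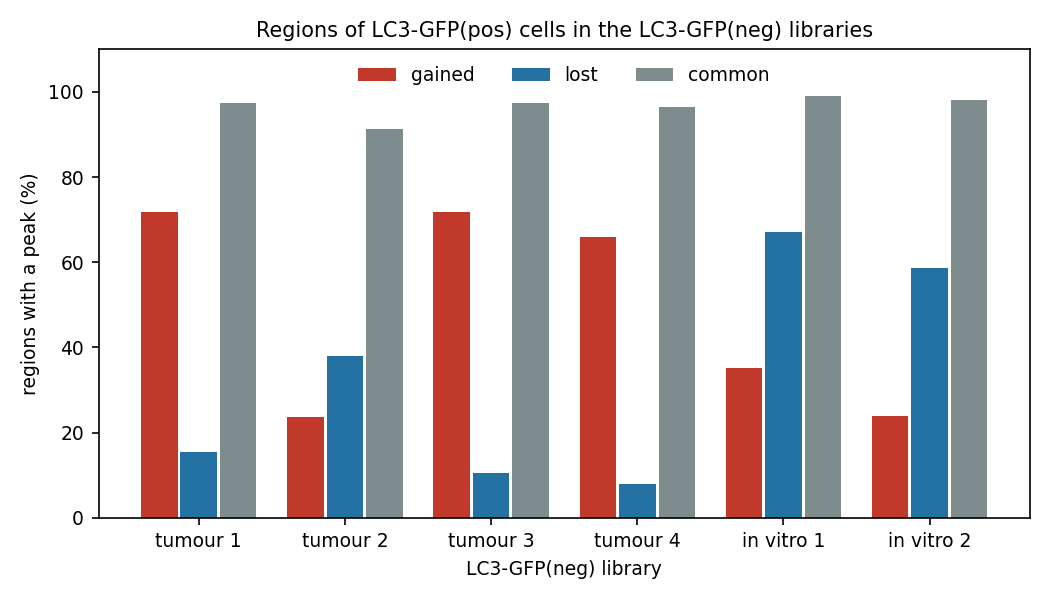
Percent of gained (red), lost (blue) and common (grey) regions of LC3-GFP positive cells that hold a peak in each LC3-GFP negative library, complete lists. Gained regions reach 66% to 71.8% in tumour libraries 1, 3 and 4 but 23.7% in tumour library 2 and at most 35.2% in vitro, and lost regions reach 58.6% and 67.1% in vitro.

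RNA of LC3-GFP positive cells before transfer was set beside the regions, in 2 libraries. Of 295 genes with a gained and no lost region 76.6% were listed in the RNA table, against 74.7% of 5213 genes with a lost and no gained region, 81.0% of 9496 genes with neither and 79.2% of all. Genes with both were listed most often, 92.6% of 503, and they had a median of 10 regions against 2 over all genes. Gained regions lay at genes with much RNA before transfer, such as Gzmb, and at genes with hardly any, such as Gzmm at 0.968 and 0.256 CPM and Hecw2 at 0.740 and 0.449 CPM. RNA of cells from tumours was not analysed here.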

How the data were processed

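Chromatin accessibility (ATAC-seq) was measured in Vβ13+CD8+ cells from 4 tumours of mice given LC3-GFP positive cells and in 2 in vitro samples of LC3-GFP positive cells, and RNA in 2 in vitro samples. Groups follow the labels' cell population. The authors deposited lists of peaks called in each library on its own with MACS2 after cutadapt and BWA in Partek, on mm10, per the submitters' processing notes; for versions, the Tn5 shift and read depth the sources used here state nothing. Per the file headers each peak carries a pileup signal, a fold enrichment over local background, and −log10 of the p-value and q-value. These are the authors' values, used here only to describe, rank or filter peaks within 1 library, and the smallest −log10 q listed was 1.30. Start and end are printed as deposited. The deposited RNA table holds estimated counts (Partek and STAR, per the submitters' processing notes), which were divided here by each library's total to give CPM, so that libraries can be compared. The table lists 13275 genes.

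Peaks were merged and compared by presence, with no count model, in Python 3.11.15 (pandas 2.3.3, scipy 1.17.1). Equal lists took the 27406 peaks with the largest −log10 p, with ties broken by fold and position. Regions were assigned to 21883 protein-coding RefSeq genes of GRCm38.p6, by body and 2 kb upstream (for the 19854 with a known strand, otherwise to both sides), and a region can belong to several genes. The merging was tested on simulated lists with planted regions. All 456 genes of the 26 lists matched the annotation by symbol or synonym. The genes named are the 10 best ranked gained and lost regions within genes, the 10 genes with most of each, up to 5 members of each list in each direction, and cell type markers; others are named where the text or a count turns on them. The members, the lists and the genes were chosen with earlier results of these data known. Exact permutation tests over libraries were used for single values. Alternatives were other rankings, cutoffs, merging rules, gene assignments and left-out libraries. Some members of the lists are counted but not reported here by name.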

Additional observations from a re-analysis of the deposited data

Results flagged for a closer look

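In groups of 4 libraries a value was set aside for a closer look when its gap to the nearest other library took up most of the group's range (Dixon's ratio above the 95% critical value), in 29 sets of values. Chance flags about 1 in 20 sets, and sets from the same lists are not independent. Of the 12 found, 7 were in tumour libraries of LC3-GFP positive cells. Tumour library 1 had 27406 peaks against at least 36539 in the others, with 39.8% of them at gene starts and 26.9% away from genes, and it also had the lowest share away from genes in the equal lists, 26.9%. In the equal lists, tumour library 4 had 14 peaks at myeloid markers where the others had 13, library 3 had 8 at melanoma markers where the others had 7, and library 2 had 8 at stroma markers where the others had 7, differences of a single peak.

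The other 5 were all in tumour library 2 of LC3-GFP negative cells. It had a peak at 23.7% of gained regions and 91.3% of common regions with complete lists, and at 15.2% of gained, 29.1% of lost and 86.5% of common regions with equal lists. The cause was not tested.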

How the results depend on the processing

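List length moved most results. Gained regions numbered 4428 and lost regions 5503 with equal lists, 5018 and 6779 with equal lists ranked by fold enrichment, and 1090 and 4372 with presence taken from the top peaks and absence from complete lists. With the top 15000 peaks 2362 were lost, and with 3 of 4 tumour libraries asked for 3176 were gained. Of the listed genes 47 had a gained and 150 a lost region, against 106 and 58 with equal lists. With equal lists the difference, tumour minus in vitro, turned from 149 to -92.5 bp for median length, from 11.4 to -0.202 percentage points for peaks at gene starts and from -3.06 to 0.152 for peaks away from genes. The share of lost regions with a peak in the in vitro LC3-GFP negative libraries went from 62.8% to 53.9%, and that of genes with a gained and no lost region listed in the RNA table from 76.6% to 84.7%.

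Leaving out 1 library at a time gave 1707 to 2991 gained regions, the most without tumour replicate 1, and 18203 to 28426 lost regions, the most without in vitro replicate 2. At listed genes it gave 47 to 71 gained (71 without tumour replicate 1) and 150 to 185 lost. The similarity difference ran from 0.220 to 0.2702. Counts stayed within 1.5 times under a −log10 q of at least 5, windows around summits, overlap of at least 50% of a region, and autosomes alone. Replicate numbers are shared labels that tie no tumour to a culture, so a block has no design behind it. With the replicate block (numbers 1 and 2 of each group) 1841 regions were gained and 20395 lost, and the similarity difference was 0.239 (exact one-sided permutation p = 0.333, the smallest possible). Leaving out libraries for the listed genes and library values, equal lists for the LC3-GFP negative and RNA values, and leaving out LC3-GFP negative tumour replicate 2 were chosen after seeing the data. Lists without read counts set the limit: an absent peak may be a weak one.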
